A study of Mus musculus with 8 samples.

Results

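Binding of native Nanog and native Sox2 was compared at day 3 of the reprogramming of mouse embryonic fibroblasts (MEFs), 1 library each. The comparison took every called peak of the libraries titled Nanog and Sox2, which gave 73465 and 58162 peaks, together 131627 of the 661009 peaks in the 8 libraries of the series. Peaks that overlapped by at least 1 bp were merged into regions, and each region was classed as shared, Nanog only or Sox2 only. There were 109555 such regions, whereas the union of all 8 libraries held 306466.

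The libraries were made by CUT&Tag, in which an antibody directs the transposase Tn5 to a chromatin-bound protein, so that nearby DNA is cut and tagged. The antibody recognised Flag, the epitope carried by the delivered factor, and the remaining 6 libraries profiled Oct4, Nr5a2 and the fusions NanogBiD, Sox2BiD, Oct4BiD and Nr5a2BiD. BiD is a BRG1-interacting stretch of SS18, placed by the study ahead of the factor, and the native forms lack it. Per the study's methods, the fibroblasts were isolated from mouse embryos carrying an Oct4-GFP reporter (OG2). Factors were delivered by pMXs retroviral vectors, and the medium was changed to iCD3 after infection. Day 3 and the Flag antibody were common to both libraries. The library titles do not name factors co-delivered with Nanog or Sox2, so the classes compare cultures and not single proteins. Delivered factors were made from vectors, at levels that the peak lists do not give.

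The study's reporting summary states that this experiment was not replicated. No test between the libraries was therefore possible, and the intervals on shares are exact (Clopper-Pearson) 95% intervals. All intervals cover counting error over peaks only. Sequencing depth was unequal, since that summary lists more read pairs, total and uniquely mapped, for native Sox2 than for native Nanog. Native Nanog nonetheless had more peaks called, and the reads left after filtering are not given. The lowest summit called was 6 tags high in Nanog and 10 tags in Sox2, and the median summit was 16 and 22 tags high. A class name such as Nanog only records that no Sox2 peak was called at the region, not that Sox2 was absent from it.

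Nanog is a homeodomain protein and Sox2 an HMG-box protein. Both belong to the core circuit of pluripotent stem cells, where they occupy many enhancers together with Oct4. Sox2 binds the minor groove, bends DNA and is known to bind nucleosomal sites, while Nanog reads short homeodomain motifs with an ATTA core. In fibroblasts the open enhancers are those of AP-1, TEAD and RUNX factors, and the enhancers of pluripotency genes are largely closed.

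Sequences at the strongest distal sites show what the classes look like at base level. Each run below is the plus strand of GRCm38.p6 (mm10) with 50 bases to either side of a summit, for the highest-scoring distal region of a class and the highest-scoring one with the motif of the factor concerned. Capitals mark matches to NANOG (GCCATTA), SOX (CCATTGTT), AP-1 (TGACTCA), TEAD (CATTCC) or RUNX (AACCACA) on either strand. A match is a description of the letters and does not show where the protein sat.
Nanog only, highest score, chr5:17689216-17689316: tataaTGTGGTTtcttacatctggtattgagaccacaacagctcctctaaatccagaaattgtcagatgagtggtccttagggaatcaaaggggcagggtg
Nanog only, highest score with NANOG, chr15:91457097-91457197: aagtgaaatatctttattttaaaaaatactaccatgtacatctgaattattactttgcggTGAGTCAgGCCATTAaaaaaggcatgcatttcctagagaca
Shared, highest Nanog score, chr15:8806507-8806607: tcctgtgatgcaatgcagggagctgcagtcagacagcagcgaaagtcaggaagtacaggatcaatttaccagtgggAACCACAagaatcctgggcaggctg
Shared, highest Nanog score with NANOG, chr17:49851332-49851432: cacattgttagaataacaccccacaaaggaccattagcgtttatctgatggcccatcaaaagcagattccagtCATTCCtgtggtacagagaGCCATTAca
Shared, highest Sox2 score, which also holds SOX, chr17:75937079-75937179: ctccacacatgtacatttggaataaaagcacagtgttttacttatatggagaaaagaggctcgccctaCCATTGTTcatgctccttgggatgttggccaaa
Sox2 only, highest score, chr3:138225898-138225998: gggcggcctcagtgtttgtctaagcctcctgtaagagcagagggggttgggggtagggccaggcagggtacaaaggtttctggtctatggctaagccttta
Sox2 only, highest score with SOX, chr10:13108473-13108573: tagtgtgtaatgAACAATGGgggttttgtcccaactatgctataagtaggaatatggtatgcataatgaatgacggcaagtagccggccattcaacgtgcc

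The first site lay in an intron of Sema3c, a secreted semaphorin, 4.936 kb from its start site, and its Nanog peak scored 1130.93. The score is 10 times the negative log10 of the peak caller's p-value. The second, in an intron of the inositol transporter gene Slc2a13, held an AP-1 and a NANOG match 1 base apart. The shared site with the highest Nanog score, 1312.73 with a summit of 142 tags, was intergenic, 95.793 kb from the glutamate transporter gene Slc1a3. The shared site with the highest Sox2 score, 1356.34, was intergenic and 385.183 kb from Fam98a. The strongest Sox2 only site, scoring 1237.01 in an intron of the alcohol dehydrogenase gene Adh7, held none of the marked motifs, whereas the site in Plagl1, an imprinted zinc finger gene, held a SOX match. All these sites also had a peak in the BiD fusion of the same factor.

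The 2 peak lists overlapped at a minority of their regions. Of the 109555 regions, 51695 (47.2%) were Nanog only, 21610 (19.7%) were shared and 36250 (33.1%) were Sox2 only. Shared regions took up 29.6% (95% CI 29.3 to 29.96) of Nanog peaks and 37.7% (37.3 to 38.1) of Sox2 peaks. Nearly all of them, 97.9%, joined a single Nanog peak to a single Sox2 peak, so the merging did not chain peaks into long regions. The Jaccard index, shared regions over all regions of a pair, was 0.197 for native Nanog and Sox2. It was 0.552 for Nanog with NanogBiD and 0.387 for Sox2 with Sox2BiD, 0.215 between the fusions NanogBiD and Sox2BiD, 0.181 for Nanog with native Oct4 and 0.112 for Sox2 with native Oct4. Lists of different length limit the index, and these pairs share libraries.

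To compare lists of equal length, the 20000 peaks with the highest score were taken from each. They formed 35362 regions, of which 15373 (43.5%) were Nanog only, 4627 (13.1%) were shared and 15362 (43.4%) were Sox2 only. The last peak inside and the first peak outside the limit had the same score in each list, 210.63 in Nanog and 188.08 in Sox2, and such ties were broken by summit height. Many of the unshared strong peaks had a weaker counterpart in the other list. Of the top 20000 Nanog peaks, 49.7% (49.0 to 50.4) overlapped some Sox2 peak, and of the top 20000 Sox2 peaks, 45.2% (44.6 to 45.9) overlapped some Nanog peak. Among the top 1000 these shares were 76.8% (74.1 to 79.4) and 60.9% (57.8 to 63.9).

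Overlap therefore went with peak strength in both lists. In the weakest decile of Nanog peaks 15.1% (14.3 to 15.9) were shared, and in the strongest 62.5% (61.4 to 63.7). For Sox2 the shares ran from 29.2% (28.0 to 30.4) to 52.4% (51.1 to 53.7), a shallower slope, and the curves crossed between the eighth and the ninth decile. Median scores were 109.07 in Nanog only peaks and 192.58 in shared Nanog peaks. For Sox2 they were 120.19 and 151.42. Even so, 391 of the 1000 strongest Sox2 peaks and 232 of the 1000 strongest Nanog peaks had no counterpart called in the other library. Shared peaks were also wider, with median widths of 1043 bp against 778 bp in Nanog only peaks. For Sox2 the widths were 888.5 and 802 bp. A wider peak meets the 1 bp overlap more easily, and the part of width in these shares was not tested.

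**Figure D1:**
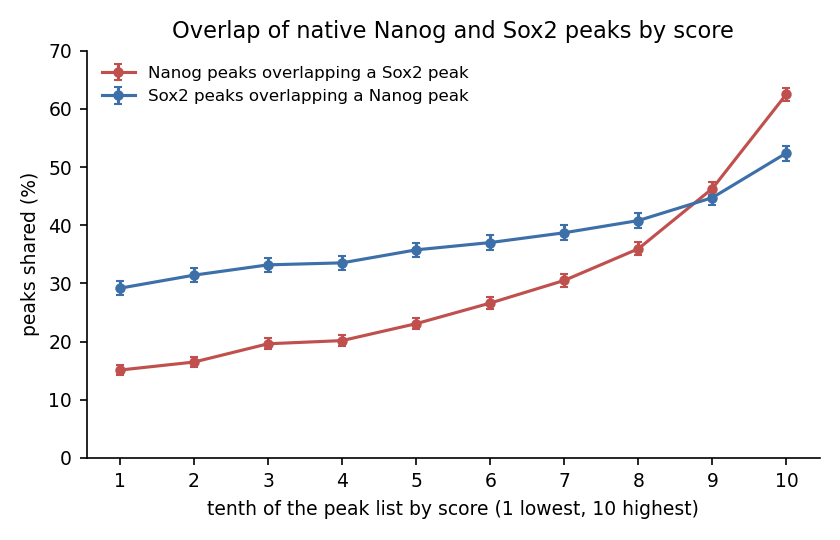
Share of peaks that overlapped a peak of the other native factor (percent, vertical axis) in deciles of each list ordered by score (horizontal axis), for Nanog (red) and Sox2 (blue), with exact 95% intervals. The Nanog curve rises from 15.1% to 62.5% and the Sox2 curve from 29.2% to 52.4%, and they cross near the top.

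The classes lay at different distances from genes. A promoter summit was one within 2 kb of any annotated transcription start site, positions that cover 10.7% of the genome. Of Nanog only summits, 20.9% (20.5 to 21.2) were at promoters, and of Nanog summits in shared regions 23.6% (23.1 to 24.2). Of Sox2 only summits, 9.43% (9.14 to 9.74) were at promoters, below the share of the genome, while Sox2 summits in shared regions reached 24.0% (23.4 to 24.6). Sox2 summits thus had a higher promoter share inside shared regions than outside them. The Nanog and Sox2 values for shared regions describe the same regions, so they are alike by construction. Median distances to the nearest start site were 11.8 kb for Nanog only, 11.5 kb for shared and 17.6 kb for Sox2 only summits. Intergenic positions held 38.0%, 35.6% and 44.2% of them, with Nanog summits standing for the shared regions.

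The contrast was steepest at the start site itself. Within 500 bp, which covers 3.16% of the genome, lay 13.1% (12.8 to 13.4) of Nanog only, 16.5% (16.0 to 17.0) of shared Nanog and 2.67% (2.51 to 2.84) of Sox2 only summits. From 500 bp to 2 kb the shares were 7.80%, 7.08% and 6.76%, so the classes separated mainly inside the first 500 bp. Among promoter summits, the median distance to the start site was 213 bp in Nanog only, 166 bp in shared Nanog, 204 bp in shared Sox2 and 960 bp in Sox2 only regions. Within 100 bp lay 34.1% (33.2 to 35.0) of Nanog only promoter summits and 7.16% (6.32 to 8.08) of Sox2 only ones. Shared promoter summits were upstream of the start in 65.1% (63.8 to 66.4) of cases by the Nanog summit, and Nanog only ones in 55.6% (54.7 to 56.6).

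**Figure D2:**
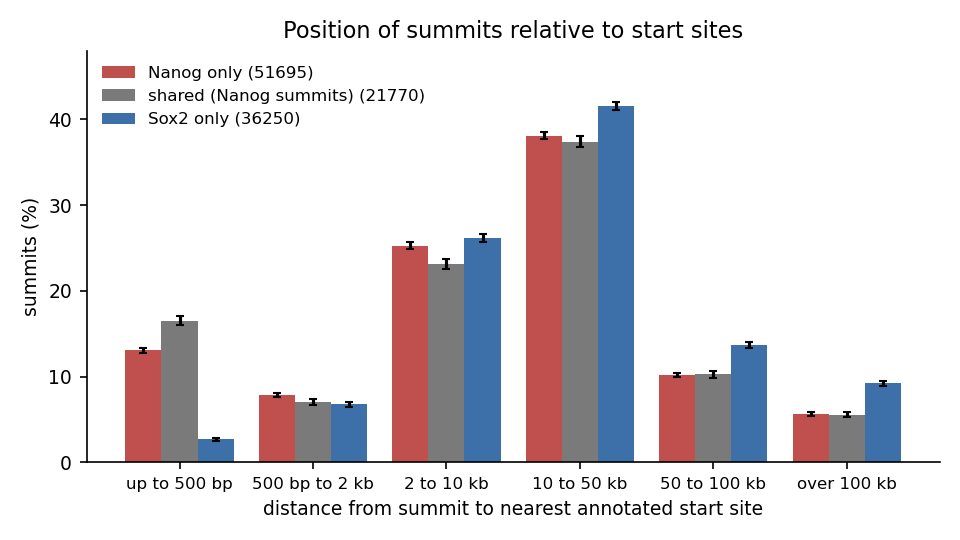
Share of summits (percent, vertical axis) by distance to the nearest annotated start site (horizontal axis) in Nanog only (red), shared (grey, Nanog summits) and Sox2 only (blue) regions, with exact 95% intervals. Within 500 bp the bars stand at 13.1%, 16.5% and 2.67%, and beyond 10 kb the Sox2 only bars are the highest.

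The difference was also present among the strongest peaks. With the top 20000 peaks of each list the promoter share was 27.3% (26.6 to 28.0) in Nanog only, 22.4% (21.2 to 23.7) in shared and 10.01% (9.54 to 10.5) in Sox2 only regions. The 10057 top Nanog peaks with no Sox2 peak of any score had 21.9% (21.1 to 22.7) at promoters, and the 10951 top Sox2 peaks with no Nanog peak had 8.92% (8.39 to 9.47). Within each list the trends ran in opposite directions. From the weakest to the strongest decile the promoter share went from 16.9% to 25.2% in Nanog, with 27.2% in the ninth, and from 16.2% to 11.8% in Sox2. In the fusion libraries 15.9% of NanogBiD only, 11.4% of Sox2BiD only and 31.5% of shared summits (NanogBiD summits) were at promoters, so the gap between the unshared classes was narrower and shared regions stood highest.

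Base composition also differed between the classes. Within 50 bp of the summit the mean GC content was 46.7% in Nanog only, 46.4% in shared (Nanog summits) and 40.7% in Sox2 only regions. At distal summits alone it was 44.5%, 43.7% and 40.5%. At promoter summits the same window held on average 4.73 CpG dinucleotides in Nanog only, 4.91 in shared and 0.901 in Sox2 only regions. Sox2 only promoter summits thus lay at CpG-poor positions, away from the start. No control library is named for these peaks, and peaks of Oct4 and Nr5a2 fell in the classes at unequal rates, given with the other libraries. The part of generally accessible chromatin in the promoter shares was not tested.

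In shared regions the summits of the factors were near each other but not at the same place. The median spacing of the closest Nanog and Sox2 summits was 80 bp (79 to 82), and the middle 50% of regions lay between 30 and 192 bp. Summits within 25 bp made up 22.3% (21.8 to 22.9), within 100 bp 56.6% (55.9 to 57.3), and over 500 bp apart 9.80% (9.41 to 10.2). The same measure between forms of a single factor gave a median of 47 bp for Nanog with NanogBiD and 40 bp for Sox2 with Sox2BiD, with 73.5% and 77.7% within 100 bp. Each of these yardsticks also compares separate libraries and so contains the error of placing a summit. Nanog with native Oct4 gave 84 bp and Sox2 with native Oct4 gave 104 bp.

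Spacing was slightly shorter at promoters and did not follow score. It was 71 bp (68 to 74) where both summits were at promoters and 83 bp (81 to 85) where both were distal. Ordered by the lower of both score ranks, 4 equal parts of the shared regions had medians of 84, 78, 80 and 81 bp. In the 5041 shared promoter regions the Nanog summit was nearer to the start site in 53.6% (52.3 to 55.02) and the Sox2 summit in 45.1% (43.7 to 46.5), with 62 regions equal. The median distances to the start were 162 and 192 bp.

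**Figure D3:**
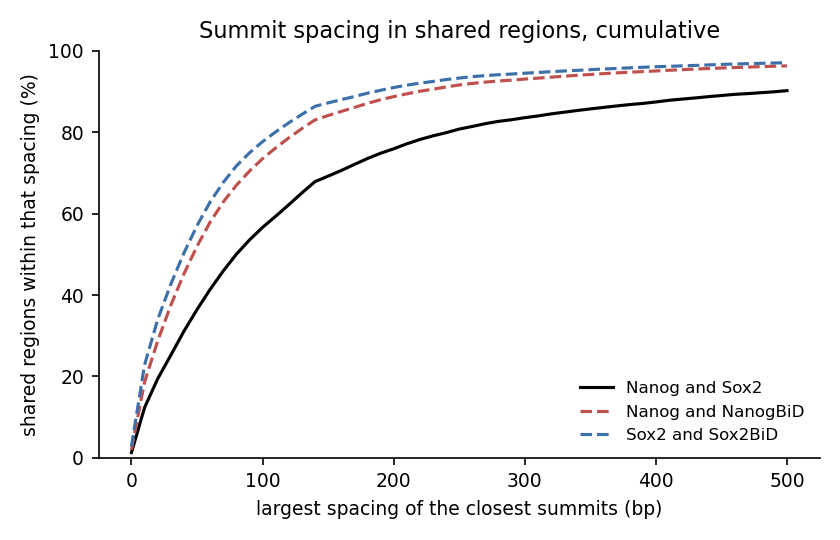
Cumulative share of shared regions (percent, vertical axis) whose closest summits lay within a given spacing (bp, horizontal axis), for native Nanog with Sox2 (black) and for each factor with its BiD fusion (dashed). At 100 bp the curves stand at 56.6% for Nanog with Sox2, 73.5% for Nanog with NanogBiD and 77.7% for Sox2 with Sox2BiD.

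Motifs at the summits were not used to form the classes. The share of summits with a match within 50 bp, on either strand, was set against flanking windows of equal length, centred 500 bp from the summit on each side and averaged. The letters of the NANOG and SOX motifs share CCATT, but no stretch can match both with that run in common. NANOG matches lay at 1.81% (1.69 to 1.93) of Nanog only summits against 0.881% in the flanks, an enrichment of 2.05 (1.87 to 2.25). At Sox2 only summits it was found at 1.13%, an enrichment of 1.25 (1.11 to 1.42). SOX matches lay at 2.16% (2.01 to 2.32) of Sox2 only summits against 0.475% in the flanks, an enrichment of 4.55 (4.01 to 5.16). At Nanog only summits it was found at 0.277% against 0.387% in the flanks, a ratio of 0.72 (0.59 to 0.87). Each factor's own motif was thus the more frequent in its own class, and in both classes it was present at a small minority of summits.

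Shared regions showed both motifs, each more enriched at the summits of its own factor. The Nanog summits of shared regions gave 1.70 (1.47 to 1.98) for NANOG and 1.5 (1.21 to 1.86) for SOX. The Sox2 summits gave 1.27 (1.08 to 1.49) for NANOG and 3.70 (3.08 to 4.45) for SOX. The octamer ATGCAAAT bound by Oct4 was close to its flanks at shared regions, with 1.12 (0.92 to 1.36) at Nanog and 1.03 (0.85 to 1.24) at Sox2 summits, and stood at 0.69 (0.59 to 0.81) in Sox2 only regions.

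Matches to motifs of fibroblast enhancer factors were more frequent than NANOG or SOX matches, but the motifs differ in length and in flank share. TEAD matches, for example, lay in 5.35% of the flanks of Nanog only summits. Over the flanks, SOX in Sox2 only regions (4.55) was close to AP-1 and above TEAD and RUNX there. NANOG in Nanog only regions (2.05) was below each of them. AP-1, the motif of FOS and JUN dimers, was found at 9.63% (9.38 to 9.89) of Nanog only, 11.6% (11.2 to 12.0) of shared Nanog and 7.10% (6.84 to 7.37) of Sox2 only summits, enrichments of 5.76, 6.401 and 4.59. TEAD, the motif of the Hippo pathway factors, was enriched 2.60-fold, 2.66-fold and 1.73-fold. RUNX was enriched 3.42-fold (3.26 to 3.601) in Nanog only and 1.89-fold (1.77 to 2.03) in Sox2 only regions. The GC-rich SP/KLF motif GGGCGG was enriched 2.16-fold (2.04 to 2.28) in Nanog only and 2.39-fold (2.22 to 2.57) in shared regions, against 0.78 (0.67 to 0.92) in Sox2 only regions. Among distal summits alone the SP/KLF values were 1.38 in Nanog only, 1.59 in shared and 0.78 in Sox2 only regions, whereas NANOG was 2.22 in Nanog only and SOX 4.54 in Sox2 only regions. CCAAT, the NFY motif, stood between 0.84 and 1.158 times its flanks in all classes. The CTCF motif was found at 0.300% of Nanog only summits, or 155 sites, an enrichment of 5.08 (3.78 to 6.83). At Sox2 only summits it was found at 0.0745%, or 27 sites, an enrichment of 3 (1.65 to 5.45). With the top 20000 peaks neither class was above its flanks, with 13 sites and a ratio of 1 in Nanog only and 3 sites and 0.67 in Sox2 only regions.

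**Figure D4:**
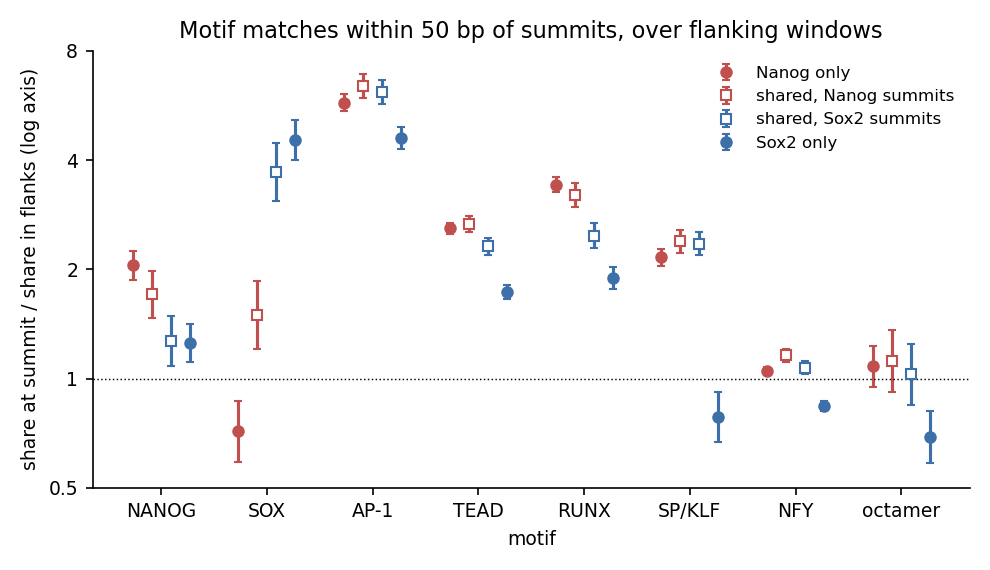
Share of summits with a motif match within 50 bp over the share in flanking windows (log axis, vertical) for 8 motifs, in Nanog only (red circles), shared regions at Nanog summits (red squares) and at Sox2 summits (blue squares) and Sox2 only (blue circles), with 95% intervals. SOX ranges from 0.72 in Nanog only to 4.55 in Sox2 only regions, while AP-1 lies above 4.5 in every class.

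Whether the summits inside a shared region differed in sequence was examined in the 9376 shared regions whose summits were more than 100 bp apart, so that the windows did not coincide. The SOX motif was at the Sox2 summit in 1.73% (1.47 to 2.01) of them and at the Nanog summit in 0.384% (0.269 to 0.531). It was at the Sox2 summit alone in 161 regions and at the Nanog summit alone in 35. NANOG was at the Nanog summit alone in 124 regions and at the Sox2 summit alone in 75. AP-1 was nearly even, with 799 regions at the Nanog and 742 at the Sox2 summit alone. RUNX leaned to the Nanog summit, with 613 against 359, and TEAD likewise, with 1117 against 835. The SOX motif thus lay more often at the Sox2 summit, and the lean of NANOG to the Nanog summit was about that of RUNX.

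The 6 libraries that played no part in forming the classes were then used to see where else each class had peaks. Of Nanog only regions, 69.9% (69.5 to 70.3) had a peak in NanogBiD and 30.1% (29.7 to 30.5) in Sox2BiD. Of Sox2 only regions, 82.0% (81.6 to 82.4) had a peak in Sox2BiD and 6.04% (5.80 to 6.29) in NanogBiD. Each class therefore recurred chiefly in the fusion of its own factor. Sox2BiD had 120594 peaks and NanogBiD 75769, so the lists were not equally permissive.

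The classes also differed in the libraries of Oct4 and Nr5a2. A peak of native or fused Oct4 or Nr5a2 was present in 51.0% (50.5 to 51.4) of Nanog only, 66.4% (65.8 to 67.0) of shared and 23.6% (23.2 to 24.1) of Sox2 only regions. Native Oct4, for example, had peaks in 21.004% of Nanog only, 41.2% of shared and 7.35% of Sox2 only regions. Peaks in all 6 other libraries were found in 5.98% (5.78 to 6.19) of Nanog only, 19.5% (19.0 to 20.1) of shared and 0.108% (0.0765 to 0.147) of Sox2 only regions. No other library had a peak in 15.8% of Nanog only, 1.28% of shared and 14.9% of Sox2 only regions. With the top 20000 peaks, Nanog only stood nearer to shared. Peaks in all 6 were then in 21.1% of Nanog only, 26.7% of shared and 1.43% of Sox2 only regions. An Oct4 or Nr5a2 peak was in 68.0%, 77.7% and 35.2%. Unshared regions of that setting can hold a weaker peak of the other factor.

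**Figure D5:**
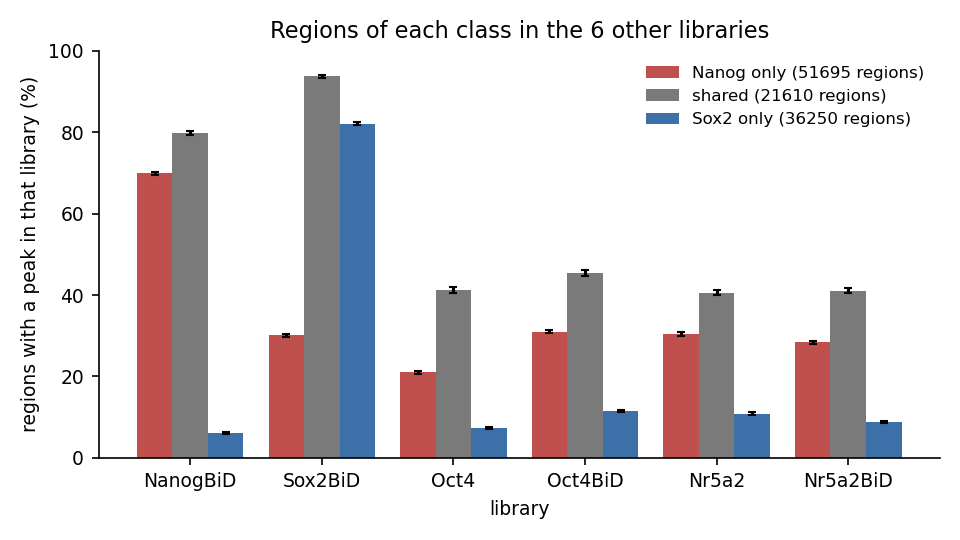
Share of regions with a peak in each of the other 6 libraries (percent, vertical axis; library, horizontal axis) for Nanog only (red), shared (grey) and Sox2 only (blue) regions, with exact 95% intervals. Sox2 only regions stand at 82.0% in Sox2BiD and at or below 11.5% in every other library, and shared regions are the highest in all 6.

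The contrast between the fusions was also present among the strongest peaks. Of the 10057 top Nanog peaks absent from the whole Sox2 list, 95.1% were in NanogBiD and 41.2% in Sox2BiD. Of the 10951 top Sox2 peaks absent from the whole Nanog list, 95.1% were in Sox2BiD and 6.88% in NanogBiD. Each factor's own motif was also more enriched at summits found in its fusion. Sox2 only summits found in Sox2BiD had a SOX enrichment of 5.22 (4.55 to 5.98), and those absent from it 1.48 (1.005 to 2.17). For NANOG in Nanog only summits the values were 2.44 (2.19 to 2.71) and 1.23 (1.02 to 1.48). The difference was not particular to these motifs. AP-1 at Sox2 only summits was 4.93 where found in Sox2BiD and 2.75 where absent, and SP/KLF at Nanog only summits 2.28 and 1.48. AP-1 at Nanog only summits went the other way, with 5.51 where found in NanogBiD and 6.33 where absent.

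Genes were classed by the summits within 2 kb of any of their start sites. Of 21938 protein-coding genes, 11239 (51.2%) had a Nanog promoter summit and 5520 (25.2%) a Sox2 promoter summit. Both factors were present at 4906 genes (22.4%), Nanog alone at 6333 (28.9%) and Sox2 alone at 614 (2.8%). Most genes with a Sox2 promoter summit thus had a Nanog summit as well. Neither factor was present at 46.0%. The lists of genes that follow are described by these classes and were chosen with earlier results known.

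Pluripotency genes were mostly without a promoter summit. Of 30, both factors were present at 4 (13.3%, against 22.4% of all genes) and Nanog alone at 6 (20%, against 28.9%). Sox2 alone was present at 1 (3.33%, against 2.8%) and neither at 19 (63.3%, against 46.0%). The 4 genes with both were Tbx3, a T-box factor of the naive state, with scores of 355.3 (Nanog) and 204.82 (Sox2), the embryonic stem cell marker Fbxo15 with 453.92 and 109.85, Klf4 with 249.52 and 89.82, and the corepressor gene Trim28 with 162.54 and 50.73. All had the higher score in the Nanog list, though scores of different libraries are not on a depth-corrected scale. Nanog alone was at Klf2 (215.73), at Tdh, which encodes threonine dehydrogenase (179.59), at the methylation cofactor gene Dnmt3l (150.71) and at Klf5 (150.49). The single gene with Sox2 alone was Sox2 itself, scoring 1208.22, where the peak covers the coding exon carried by the delivered vector (chr3:34650330-34651449). Vector DNA and the endogenous gene cannot be told apart there. Likewise, Nanog peaks scoring 505.93 and 120.23 lay on coding exons of Nanog.

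Fibroblast genes carried summits of both factors more often than genes in general. Of 28 genes of the fibroblast matrix and surface, 17 (60.7%, against 22.4% of all genes) had both and 10 (35.7%, against 28.9%) Nanog alone. Sox2 alone was at 1 (3.57%, against 2.8%), and 0 had neither, against 46.0% of all genes. Vim, the mesenchymal intermediate filament gene, scored 307.13 in Nanog and 309.29 in Sox2. Acta2, smooth muscle actin, scored 260.06 and 444.46, the collagen gene Col1a2 252.4 and 318.16, and the fibronectin gene Fn1 492.67 and 186.93. Nanog alone was at Col6a2 (166.84), Thbd (155.66), Lum (152.47) and Loxl1 (148.57). Thbs1, thrombospondin, had Sox2 alone (266.8). Of 21 mesenchymal transcription factors and cadherins, 8 (38.1%, against 22.4% of all genes) had both and 11 (52.4%, against 28.9%) Nanog alone. Tcf4 (327.57 and 468.41), the N-cadherin gene Cdh2 (202.21 and 357.6), Runx2 (210.06 and 195.13) and Runx1 (343 and 145.87) were among those with both, and Tbx18 (280.25), Osr2 (233.23), Zeb2 (206.84) and Osr1 (191.98) had Nanog alone.

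Genes of the AP-1 and TEAD families, whose motifs were enriched, were described in the same way. Of 12 AP-1 family genes, 5 (41.7%, against 22.4% of all genes) had both and 2 (16.7%, against 46.0%) had neither. Those with both included Jun (266.38 and 220.73), Fosl2 (216.2 and 161.93), Jund (269.57 and 93.39) and Junb (56.38 and 64.74). Nanog alone was at 5 (41.7%, against 28.9%), including Fos (229.8), Maff (216.68), Jdp2 (157.39) and Fosb (110.53). Of 17 Hippo and TEAD genes, 11 (64.7%, against 22.4%) had both, 5 (29.4%, against 28.9%) Nanog alone and 1 (5.88%, against 46.0%) neither. The kinase gene Stk4 scored 447.87 in Nanog and 727.25 in Sox2, the coactivators Yap1 237.09 and 185.61 and Wwtr1 411.56 and 146.53, and the scaffold gene Sav1 157.67 and 157.68. Lats1 (169.25), Amotl1 (156.28), Tead4 (96.84) and Ankrd1 (84.8) had Nanog alone.

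Genes of other lineages were mostly without summits. Of 20 epithelial genes, 15 (75%, against 46.0% of all genes) had neither factor, and the exceptions included Grhl2, an epithelial transcription factor, with scores of 100.34 in Nanog and 461.59 in Sox2, Tjp3 with 402.77 and 64.66, and Esrp1, Crb3 and Ocln with Nanog alone (281.38, 126.41 and 61.82). Of 21 neural factors, 17 (81.0%, against 46.0%) had neither. Sox11 (385.97 and 81.18) and Zic1 (73.32 and 54.03) had both, and Sox21 had Sox2 alone (81.44).

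Genes of the BAF remodelling complex had both factors and Nanog alone more often than genes in general. Of 27, 11 (40.7%, against 22.4% of all genes) had both, 13 (48.1%, against 28.9%) Nanog alone and 1 (3.70%, against 2.8%) Sox2 alone. Those with both included the ATPase gene Smarca2 (516.05 and 332.83), Actl6a (406.39 and 191.94), Arid1b (141.2 and 368.06) and Actb (121.91 and 109.33). Bcl7b (397.44), Pbrm1 (264.06), Arid2 (213.09) and Arid1a (176.2) had Nanog alone, and Smarcd3 had Sox2 alone (73.14). Most of the 80 listed cytosolic ribosomal protein genes have CpG-rich promoters active in every cell. Of the 80, 52 (65%, against 28.9% of all genes) had Nanog alone and 20 (25%, against 22.4%) both. The single one with Sox2 alone, named after its value was seen, was Rpl24 (76.32).

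The strongest promoter regions of each class were often not at protein-coding genes, because any annotated start site counted. The highest shared one, with scores of 1276.24 in Nanog and 1208.28 in Sox2, lay 136 bp from the start of an annotated ribosomal RNA gene, CT010467.1 (chr17:39842919-39848887), a repeated sequence. Its summits were 4195 bp apart. The second lay near a short RNA gene, and its nearest protein-coding gene was Zfp608 at 631.737 kb (820.52 and 860.13). The next 3 were at protein-coding genes, namely Eps8, a regulator of actin (788.43 and 937.78, summits 70 bp apart), Tns4, a focal adhesion tensin (773.55 and 1020.92, 23 bp) and Tomm40, the mitochondrial import pore (754 and 798.14, 327 bp).

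Nanog only promoter regions were led by Vamp9 (1117.24, 55 bp from the start) and Cfap69 (889.73, 361 bp). The other 3 lay at starts of pseudogenes or a long noncoding RNA, of which Gm15221 was 46.103 kb from Bmp4, a BMP ligand (798.98), and the others were 1243.6 kb from Nr2f1 (882.91) and 677.873 kb from Csmd3 (773.7). Sox2 only promoter regions were led by Gm20422 (1032.64, 1339 bp from the start), Platr25 (990.94, 105 bp) and the tuftelin gene Tuft1 (966.82, 733 bp). The next were near noncoding starts, 346.589 kb from the angiopoietin gene Angpt1 (901.13) and 94.343 kb from the imprinted gene Rtl1 (883.51).

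The strongest distal regions are named by the nearest protein-coding gene, which was in several cases over 100 kb away. Nanog only regions after that of Sema3c were in introns of Eya4 (1001, 17.559 kb from the start) and the myosin gene Myo5a (985.52, 13.716 kb), and intergenic near AI593442 (987.5, 149.94 kb) and the activin receptor gene Acvr2a (970.07, 294.032 kb). Sox2 only regions after that of Adh7 were intergenic near the tachykinin receptor gene Tacr1 (1196.13, 88.358 kb) and Zfp608 (1118.88, 426.896 kb), and in introns of Plagl1 (1116.93) and Macc1 (1113.12, 6.142 kb). Ordered by the lower of both scores, shared regions were led by an intron of the ubiquitin ligase gene Hecw2, with scores of 1068.26 and 1061.06 and summits 113 bp apart. Regions near Npl (1042.61 and 1163.48, 670 bp apart), Slc27a6 (991.32 and 994.49, 52 bp), Ripor2 (960.53 and 978.84, 67 bp) and again Zfp608 (1041.04 and 942.16, 369 bp) followed. Each of these regions also had a peak in the fusion library of its factor.

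Regions were also counted at the nearest protein-coding gene within 100 kb. Of the 15572 genes with at least 1 region, 9336 had more Nanog only than Sox2 only regions, 3448 had fewer and 2788 as many. Over all regions Nanog only likewise outnumbered Sox2 only, 51695 against 36250. With a summit height minimum of 20 tags that order was reversed, 19349 against 25867. Pde4d, a cyclic AMP phosphodiesterase gene, had the widest excess of Nanog, with 74 Nanog only, 31 shared and 35 Sox2 only regions. Auts2 had 41 Nanog only and 16 Sox2 only regions, the doublecortin-like kinase gene Dclk1 26 and 3, Agap1 27 and 5, and Ccbe1 25 and 3. In the other direction, Lingo2 had 3 Nanog only and 17 Sox2 only regions, Mctp1 3 and 17, the SOX family gene Sox6 12 and 25, and the mesenchymal cadherin gene Cdh11 5 and 17. All these genes had regions of both kinds, and long genes hold more regions.

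At 9 targets and helpers taken from the study's text, summits of both factors lay within 100 kb of the start, except at Dppa5a. The study names these genes from NanogBiD cultures at a later day or as helpers of Nanog with Oct4. It does not name them for these day 3 libraries. In all there were 24 Nanog only, 8 shared and 17 Sox2 only regions. This mix was near that of all regions, of which 47.2% were Nanog only, 19.7% shared and 33.1% Sox2 only. Klf4 had the most, with 7, 3 and 3, and its nearest shared summit was 0.538 kb from the start. Sox15 had 6, 4 and 2. Esrrb, an orphan receptor of the pluripotency circuit, had 3 Nanog only regions, the nearest at 3.284 kb, no shared region and 1 Sox2 only region at 99.263 kb. Sall4 had 2 Nanog only and 2 Sox2 only regions, none within 31 kb. Mir302a, a microRNA of pluripotent cells, had a Nanog only region at 7.568 kb and a Sox2 only region at 40.653 kb. Dppa5a had a single Nanog only region at 69.655 kb. Foxb1 had 1 shared and 2 Sox2 only regions, and Olig3 1 Nanog only and 2 Sox2 only regions. Sox2 had 3 Nanog only and 4 Sox2 only regions, the nearest of the latter being the peak on its coding exon.

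Along the genome the classes kept similar proportions. On the autosomes the ratio of Nanog only to Sox2 only regions ranged from 1.26 on chromosome 16 to 1.74 on chromosome 11. On the X chromosome it was 1.05, and shared regions made up 15.0% of regions there, against 18.5% to 21.1% on the autosomes.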

How the data were processed

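Per the study's methods and the labels, the authors used Trim Galore 0.6.4 for trimming, Bowtie2 2.4.5 for mapping (build mm10), SAMtools 1.16.1 for removing reads of mapping quality under 30, and MACS 1.4.2 for peaks (1 tag per position, no model, shift size 25 bp, threshold 1e-05, no control library named). The deposited score comes from the authors' peak caller, as 10 times the negative log10 p. The deposited summit signal is the authors' height in whole tags, not scaled to depth. Total reads are not in the lists, so depth limits comparisons of scores between libraries. The labels and the methods name different kits and cell numbers.

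Peaks were merged at 1 bp overlap, and 24 peaks off the placed chromosomes were not annotated. Start sites came from GENCODE M21 and sequence from GRCm38.p6. In shared regions the closest pair of summits gave the spacing. Enrichment intervals were taken on the log scale from counts of matches. Scripts were tested on simulated data (Python 3.11.15, NumPy 2.4.6, pandas 2.3.3, SciPy 1.17.1, pysam 0.24.0, matplotlib 3.10.9). Named genes are up to 4 per list and class by promoter score, the 5 strongest regions per class and position, the 5 largest excesses each way, and 9 genes of the study's text; some genes under this rule are not reported here. The comparison, its members and the gene lists were chosen with earlier results of these data known. Alternatives were the top 20000 peaks, summits of at least 20 tags, summits within 100 bp, 500 bp promoters, protein-coding start sites, the highest summits, and motif windows of 25 and 100 bp.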

Additional observations from a re-analysis of the deposited data

Results flagged for a closer look

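The direction of the Sox2 to Nanog contrast in peak number differed between the native and the fused forms. The log2 ratio of peak numbers, Sox2 over Nanog, was -0.34 in the native form, with 58162 and 73465 peaks, and 0.67 in the BiD form, with 120594 and 75769 peaks. With 1 library per factor and form the difference was not tested. The promoter share was lower in Sox2 than in Nanog in both forms, by 6.76 percentage points in the native and 5.62 in the BiD form.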

How the results depend on the processing

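No paired analysis was possible because each group holds 1 library. Sox2 only had the lowest promoter share in all alternatives run, while the counts followed the number of peaks kept. With the top 20000 peaks there were 4627 shared, 15373 Nanog only and 15362 Sox2 only regions, and promoter shares of 27.3% in Nanog only, 22.4% in shared and 10% in Sox2 only regions. With a summit height minimum of 20 tags, irrespective of depth, there were 8453 shared, 19349 Nanog only and 25867 Sox2 only regions, so that Sox2 only became the larger unshared class. This limit gave promoter shares of 24.8%, 24.3% and 10.3%, and a median spacing of 70 bp. With the top 20000 peaks Nanog only stood above shared, the reverse of the order over all peaks, and at 20 tags their intervals overlapped. Requiring summits within 100 bp left 12235 shared regions. With a 500 bp promoter the shares were 13.1%, 16.5% and 2.67%, and with protein-coding start sites 16.6%, 18.9% and 5.53%. With windows of 100 bp to either side the enrichment was 1.84 for NANOG in Nanog only and 3.91 for SOX in Sox2 only summits. Presence in the fusions was higher in both stricter settings, where an unshared region can have a weaker peak of the other factor. For Nanog only regions, NanogBiD held 95.7% of the top 20000 and 92.6% at 20 tags, and Sox2BiD 58.8% and 48.4%. For Sox2 only regions, Sox2BiD held 96.1% and 91.9%, and NanogBiD 22.7% and 17.5%. The values for the other factor's fusion therefore include regions that were shared over all peaks. Among top 20000 peaks absent from the whole of the other list, Sox2BiD held 41.2% for Nanog and NanogBiD 6.88% for Sox2. In all, 18 values stayed within their intervals or within 1.5 times the main count. Of the values for the main results, 29 moved beyond these limits. Another 3, not printed here, moved without a change of direction. Depth limits the classes, since a weak site can be missed in either library.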

Other observations

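The spacing of summits in shared regions had a step near 140 bp. Between native Nanog and Sox2, 1201 regions had spacings over 100 and up to 120 bp, 1227 up to 140 bp, 592 up to 160 bp and 636 up to 180 bp. The same step was present for Nanog with NanogBiD (2329 against 1094 on either side of it) and for Sox2 with Sox2BiD (2009 against 818). Over all 28 pairs of libraries, the count from 140 to 160 bp was between 0.41 and 0.64 of the count from 120 to 140 bp. It was noticed after the values were seen, and it is not particular to native Nanog and Sox2. Its cause was not tested.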
